A study of Mus musculus with 6 samples.

Results

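The contractile program of smooth muscle is the set of genes for the actin and myosin filaments that shorten the cell, the proteins that anchor and regulate those filaments, and the transcription factors that drive them. Serum response factor (SRF) binds a short DNA element, the CArG box, near many of these genes, and its cofactors myocardin, MRTF-A and MRTF-B decide how strongly they are transcribed. MRTF proteins are held in the cytoplasm by unpolymerised actin and enter the nucleus when actin assembles. In culture, arterial smooth muscle cells commonly lose part of this program and take on a proliferative, matrix-producing state.

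The members were named by symbol, 35 genes in all, and 30 of them were found among the 12389 genes of the table used. Mylk, Des, Pdlim3, Myocd and Pgm5 were not analysed here. All 30 passed the filter on low values (at least 10 scaled reads in at least 3 libraries). A scaled read is an estimated read count divided by a factor for its library, as deposited. Where 3 values are given for a genotype, they are replicates 1, 2 and 3 in that order.

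The 6 RNA-seq libraries came from primary vascular smooth muscle cells grown out of pieces of mouse thoracic aorta in serum-containing medium, used untreated at passage 6 or below. WT is wild type (3 libraries) and KO is a smooth muscle-specific knockout of LRRC8A, the subunit that volume-regulated anion channels cannot do without (3 libraries). The labels do not say the strain, age, sex or Cre driver, and the genotype field reads wild type for every sample, so the groups rest on the titles. Submitters call the libraries of a genotype independent biological replicates, and both genotypes are numbered 1 to 3. In bulk RNA, fewer cells that express a gene and less RNA of it per cell cannot be told apart.

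Estimated depth ran from 31.0 M to 47.9 M reads per library. The replicate 3 libraries were the deepest, at 45.3 M in WT and 47.9 M in KO, against 31.0 M to 35.9 M in the others. Lrrc8a, the targeted gene, was at 2578, 2194 and 1221 scaled reads in WT, against 868, 673 and 506 in KO, so every KO library lay below every WT library. The 7 smooth muscle markers analysed (Acta2, Tagln, Cnn1, Myh11, Smtn, Lmod1 and Myl9) were above 0 in every library. Of 10 endothelial markers, 2 were analysed, Kdr and Egfl7, with a summed level of 94.9 to 463 scaled reads. Of 10 leukocyte markers, 3 were analysed, with a sum of 392 to 1594.

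The CArG boxes of the members are shown first because they are the DNA element that defines SRF targets. RefSeq promoter windows (GRCm38.p6, 250 bases before to 50 bases after a transcript start) were matched for 24 of the 30 members. An exact CArG box, whose consensus reads the same on both strands, was present for 7 of the 24 (29.2%), against 1.55% of the 9043 tested genes with a window and 1.81% of all 27025 genes in the RefSeq table. By windows, the shares were 25% of 36 member windows and 1.63% of all 32851. The genes were listed as SRF program genes, so this is a description of the list and not a test of it. Each line below gives the box in capitals with its neighbouring bases in lower case, on the strand of the gene, for the 7 members with an exact box and for Acta2, whose boxes each differ from the consensus at a single base. The box of Ldb3 lies in a pair of overlapping windows and is shown once. The rule for printing took 4 members with an exact box, Cnn2, Myl9, Ldb3 and Fhl1, and the other 4 were added after the matches were seen.
Srf, chr17:46556225-46556254, minus strand: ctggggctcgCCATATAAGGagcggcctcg
Srf, chr17:46556205-46556234, minus strand: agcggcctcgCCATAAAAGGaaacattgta
Cnn2, chr10:79988534-79988563, plus strand: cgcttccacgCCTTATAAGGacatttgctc
Filip1l, chr16:57549170-57549199, plus strand: atgccgcgcgCCTTATAAGGctgagcggtg
Myl9, chr2:156775293-156775322, plus strand: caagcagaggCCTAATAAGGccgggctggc
Fhl1, chrX:56779571-56779600, plus strand: ccttggatcaCCTAAAATGGttaagaattt
Fhl2, chr1:43163973-43164002, minus strand: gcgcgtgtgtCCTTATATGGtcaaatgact
Fhl2, chr1:43196838-43196867, minus strand: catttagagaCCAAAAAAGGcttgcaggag
Ldb3, chr14:34588697-34588726, minus strand: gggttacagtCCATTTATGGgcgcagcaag
Acta2, chr19:34255438-34255467, minus strand: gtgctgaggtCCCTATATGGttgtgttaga
Acta2, chr19:34255388-34255417, minus strand: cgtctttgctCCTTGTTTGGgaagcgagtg

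The pair of exact boxes in the Srf promoter began 82 and 62 bases before the transcript start. The boxes of Cnn2 and Filip1l have the same letters, and began 56 and 62 bases before their starts. Those of Acta2 began 84 and 34 bases before its start. With a single mismatch allowed, 15 of the 24 members (62.5%) and 19.1% of tested genes had a match. A match describes letters in the window and does not show that SRF was bound in these cells.

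Of the transcription factors of the program, Srf, Mrtfa and Mrtfb lay close together across libraries, and Myocd, the gene of myocardin, was not analysed. Srf was at 1578, 891 and 1343 scaled reads in WT, against 1324, 1091 and 1060 in KO, and the groups overlapped. Mrtfa, the gene of MRTF-A, was at 3253, 3032 and 3595 in WT, against 3051, 2351 and 5098 in KO. Mrtfb was at 2890, 1779 and 2040 in WT, against 2381, 2100 and 1448 in KO. On the log2(scaled reads + 2) scale used throughout, KO minus WT was -0.10 (SE 0.26) for Srf, 0.015 (SE 0.30) for Mrtfa and -0.18 (SE 0.28) for Mrtfb. Within a genotype, the highest library exceeded the lowest by no more than 2.17-fold for these 3 genes.

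**Figure D1:**
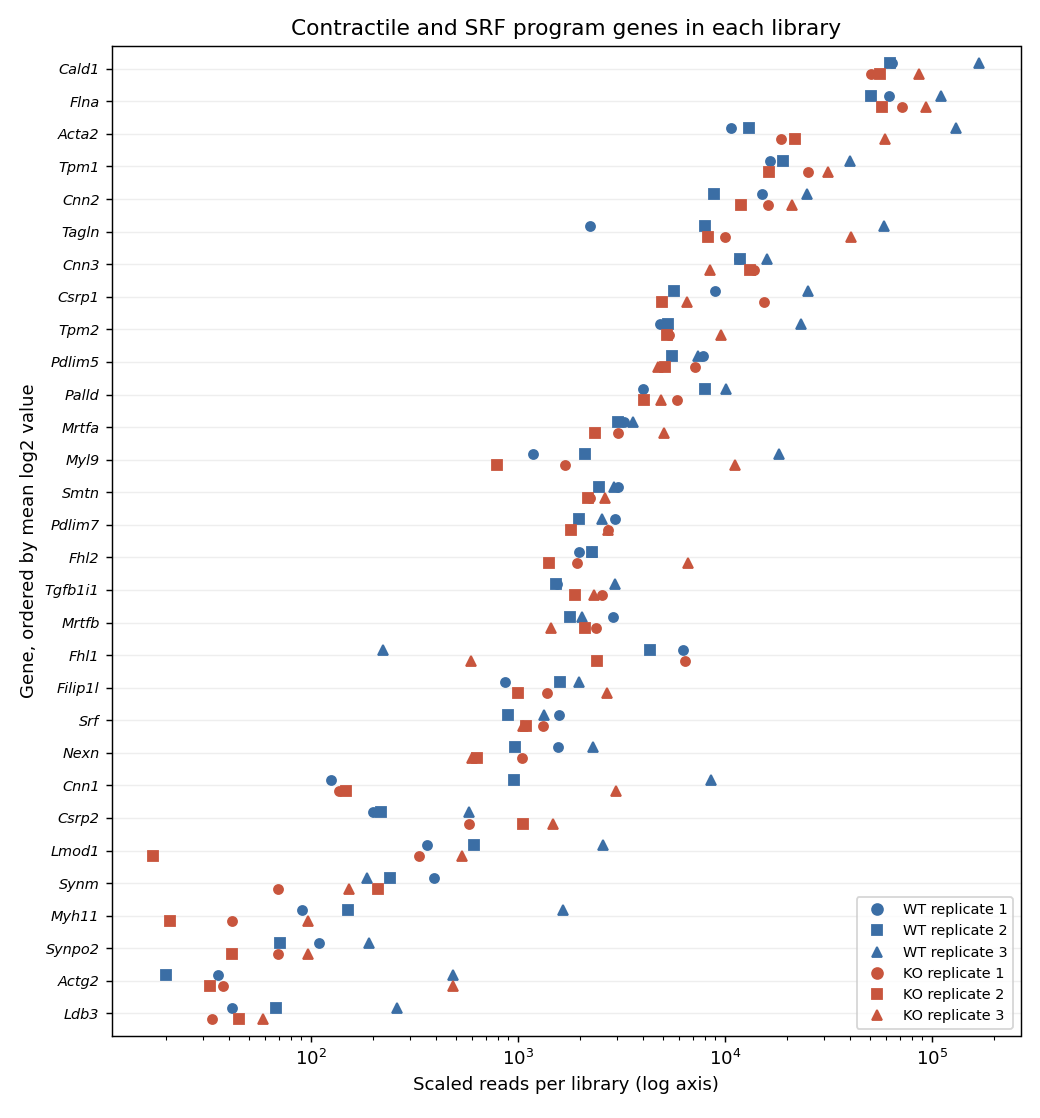
Scaled reads (log axis) of the 30 contractile and SRF program genes in each of the 6 libraries, ordered by mean log2 value, with WT in blue, KO in red and the replicate number as the marker shape. The triangles of replicate 3 lie at the right for Acta2, Tagln, Cnn1, Myl9 and Actg2 in both genotypes and at the left for Fhl1.

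The classical filament genes spread far more, and among WT libraries the highest exceeded the lowest 12.3-fold for Acta2 and 24.5-fold for Actg2. Acta2, which encodes smooth muscle alpha-actin, was at 10651, 13083 and 130984 scaled reads in WT, against 18724, 21829 and 59317 in KO. In each genotype replicate 3 was highest, and both lay above all other libraries. The WT mean was 51572 ± 68783 (SD, n = 3) and the KO mean 33290 ± 22593 (SD, n = 3), so the SD of WT exceeded its mean. Actg2, the enteric smooth muscle gamma-actin, was at 35.6, 19.8 and 487 in WT, against 37.4, 32.4 and 486 in KO. Actins are near-identical in protein sequence. No source used here says how any reads shared between actin genes were counted, so the low level of Actg2 beside Acta2 is uncertain.

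Transgelin (Tagln), an actin-binding protein and early marker of the lineage, was at 2240, 8008 and 58393 scaled reads in WT, against 10030, 8327 and 40463 in KO. Cnn1, the calponin found in differentiated smooth muscle, was at 124, 952 and 8583 in WT, against 137, 148 and 2968 in KO. Between the highest and lowest WT library these differed 26.1-fold for Tagln and 69-fold for Cnn1, and between the KO libraries 4.86-fold and 21.7-fold. The broadly expressed calponins varied less, with Cnn2 at 15163, 8842 and 24922 in WT and 16133, 12005 and 21158 in KO. Cnn3 was at 11665, 11889 and 16042 in WT, against 13891, 13260 and 8514 in KO, and was the calponin in which KO replicate 3 was the lowest of the 6 libraries.

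Replicate 3 was the highest library of its genotype for the myosin genes Myl9 and Myh11 and for Lmod1. Of these, only Myl9 had both replicate 3 libraries above all others. Myl9, the regulatory light chain, was at 1187, 2111 and 18154 scaled reads in WT, against 1681, 794 and 11138 in KO. Myh11, the smooth muscle myosin heavy chain and the most restricted marker of the lineage, was at 90.1, 152 and 1656 in WT, against 41.7, 20.8 and 96.8 in KO. KO replicate 3 was the highest of the KO libraries and the only one above a WT library, replicate 1. Lmod1, a leiomodin that nucleates actin filaments, was at 365, 613 and 2574 in WT, against 332, 17.3 and 538 in KO. Its KO replicate 2 value was far below the rest, and the KO libraries differed 31-fold.

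Tropomyosins and caldesmon, which lie along the thin filament, were abundant in all libraries. Tpm1 was at 16458, 19186 and 40158 scaled reads in WT, against 25297, 16389 and 31310 in KO, and Tpm2 was at 4871, 5299 and 23374 in WT, against 5393, 5236 and 9577 in KO. Cald1 was at 64335, 62746 and 169285 in WT, against 50826, 56153 and 86887 in KO, and its KO value was below the WT value of the same number in all 3 pairs. Smtn, which encodes smoothelin, was the most even of the marker genes, at 3049, 2474 and 2911 in WT and 2234, 2191 and 2635 in KO.

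Per kilobase of merged exon length, Acta2 was the highest member, at a mean of 23485 scaled reads per kb in WT and 15159 in KO, followed over the 6 libraries by Tagln (11509 and 9862), Flna (7915 and 7889) and Cald1 (8204 and 5367). Myh11 ranked 27th of the 30, at 83.2 per kb in WT and 6.99 in KO. These differences in rank are descriptions, since the spread between libraries of Acta2 and Tagln covers their neighbours. The 30 members together took 0.603%, 0.620% and 1.87% of all scaled reads in WT and 0.701%, 0.612% and 1.20% in KO.

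Shares within gene families varied between libraries, and not in one way for all families. Of the reads per kb of Acta2, Actg2, Actb and Actg1, Acta2 made up 7.84%, 16.9% and 47.7% in WT and 14.7%, 23.2% and 34.3% in KO. Cnn1 made up 0.453%, 4.43% and 16.9% of the calponin genes in WT and 0.448%, 0.581% and 8.68% in KO. Against the non-muscle heavy chain Myh9, Myh11 stayed a minor part, from 0.143% to 3.34% in WT and from 0.0486% to 0.160% in KO. Among the 4 tropomyosin genes Tpm2 made up 15.4%, 14.6% and 25.7% in WT and 12.7%, 12.5% and 15.2% in KO, so its share too was largest in replicate 3 of each genotype. Tpm1 was at 23.3%, 23.7% and 19.8% in WT and 26.7%, 17.6% and 22.3% in KO, and was largest in neither replicate 3. Of the 3 filamin genes, the muscle-type Flnc made up 23.0%, 14.5% and 15.1% in WT and 14.8%, 16.0% and 14.7% in KO, also with no largest share in replicate 3. Fhl1 and Fhl2 encode a pair of LIM-domain adaptors. Fhl1 made up 61.8%, 49.1% and 4.76% of the pair in WT and 63.0%, 46.8% and 4.37% in KO.

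**Figure D2:**
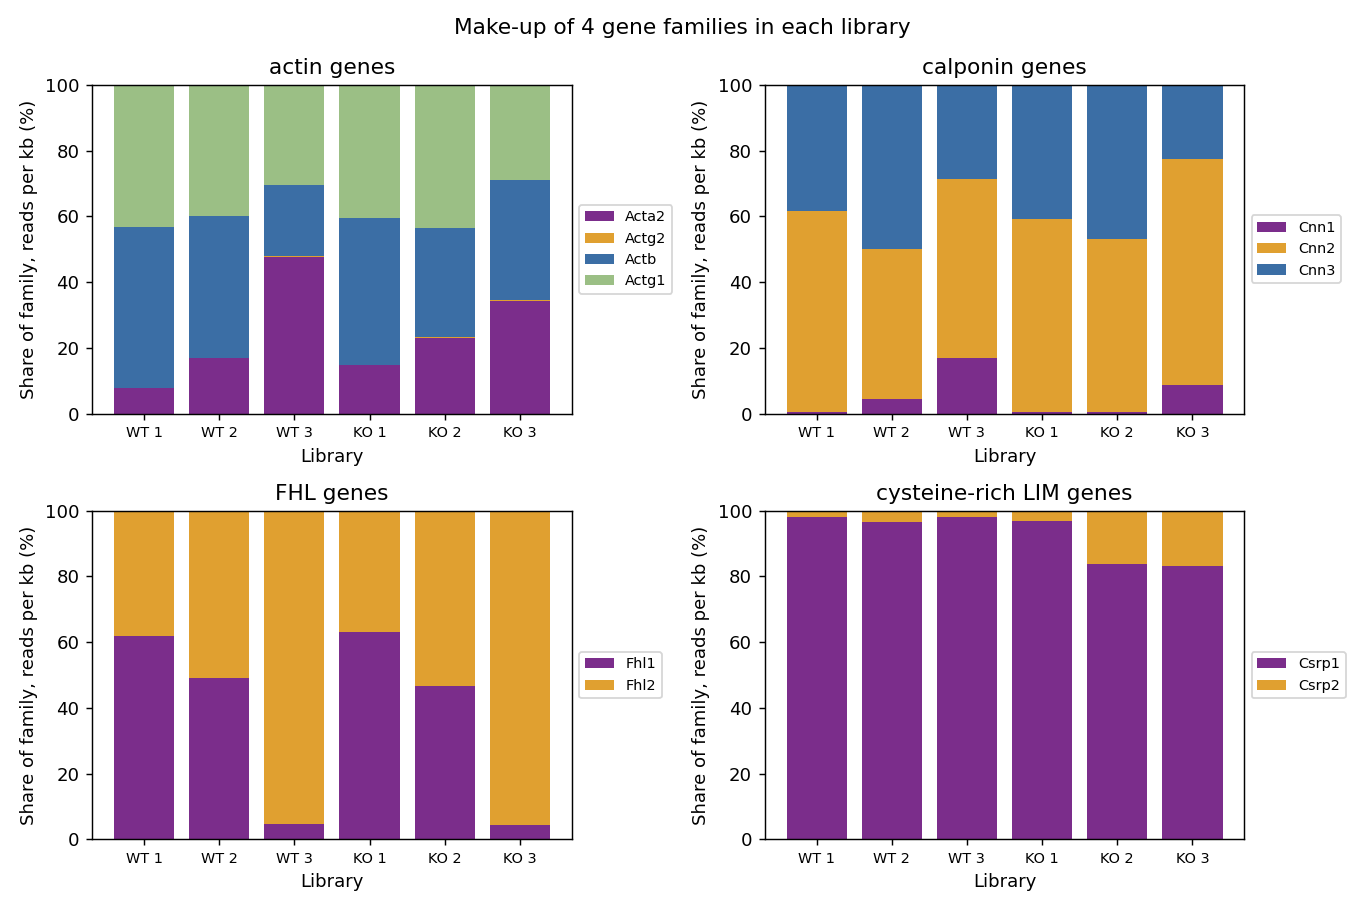
Share (%) of each gene in the reads per kb of its family, for 4 families, in each of the 6 libraries. Acta2 and Cnn1 take their largest shares, and Fhl1 its smallest, in replicate 3 of WT and of KO, and Csrp2 takes 16.2% and 16.7% of its pair in KO replicates 2 and 3.

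Fhl1 was the member that ran opposite to the filament genes. It was at 6286, 4327 and 223 scaled reads in WT, against 6450, 2421 and 592 in KO, so replicate 3 was lowest in each genotype. Fhl2, an SRF target that also binds SRF, was at 1983, 2289 and 2281 in WT, against 1936, 1408 and 6616 in KO, where KO replicate 3 alone stood high. Both have an exact CArG box in a promoter window, printed above.

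Csrp2, which encodes the LIM protein SmLIM, had the smallest p of the members in the KO against WT comparison. It was at 199, 217 and 582 scaled reads in WT, against 580, 1060 and 1470 in KO. The WT mean was 333 ± 216 (SD, n = 3) and the KO mean 1037 ± 446 (SD, n = 3). KO replicate 1 fell just short of WT replicate 3, so the groups overlapped by that pair of libraries. KO was above WT in all 3 same-numbered pairs, by 1.53, 2.28 and 1.33 on the log2 scale. Its relative Csrp1 was at 8974, 5700 and 25133 in WT, against 15467, 4955 and 6589 in KO, with KO minus WT of 0.79, -0.20 and -1.93 by pair. Csrp2 made up 1.96%, 3.32% and 2.04% of the pair per kb in WT and 3.27%, 16.2% and 16.7% in KO.

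Nexn, the gene of the filament-binding protein nexilin, was the member with the next smallest p and had the lower values in KO. It was at 1556, 964 and 2294 scaled reads in WT, against 1049, 631 and 601 in KO, with means of 1605 ± 666 (SD, n = 3) for WT and 760 ± 251 (SD, n = 3) for KO. Only KO replicate 1 reached into the WT range. The filament anchors Synpo2 (synaptopodin-2), Synm (the intermediate filament protein synemin) and Ldb3 (a PDZ-LIM protein of the Z-disc) were low in all libraries. Synpo2 was at 109, 71.2 and 190 in WT, against 69.5, 41.6 and 96.8 in KO. Synm was at 395, 242 and 187 in WT, against 69.5, 211 and 152 in KO. Ldb3 was at 41.5, 67.7 and 262 in WT, against 33.2, 45.1 and 58.4 in KO. All 3 of these genes were lower in KO in each same-numbered pair, while their groups overlapped.

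The remaining adhesion and scaffold members showed smaller differences. Flna, the actin cross-linker filamin A, was at 61986, 50970 and 110256 scaled reads in WT, against 71966, 57271 and 93236 in KO. Palld, the gene of the actin-bundling protein palladin, was at 4031, 7985 and 10127 in WT, against 5862, 4060 and 4914 in KO. Tgfb1i1, which encodes the focal adhesion protein Hic-5, was at 1539, 1528 and 2948 in WT, against 2557, 1883 and 2332 in KO. For Pdlim5, Pdlim7 and Filip1l, KO minus WT was -0.30 (SE 0.24), -0.05 (SE 0.25) and 0.15 (SE 0.45). In all of these genes the WT and KO libraries overlapped.

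The comparison of KO with WT asks which genotype-dependent changes the cells carry. Among the 30 members, 0 were higher and 0 lower in KO at a limma adjusted p of 0.05, the threshold used throughout, and 0.0% of the 12363 genes tested passed in each direction. Lrrc8a, the targeted gene, did not pass either, with a limma unadjusted p of 0.00291 and an adjusted p of 0.999. A count of 0 therefore does not show that the members were unchanged. With the limma p left unadjusted and the same threshold, Csrp2 passed as higher, where 1.46% of all genes did, and Nexn as lower, where 2.15% did, which makes 2 members against 3.62% of all genes in either direction. The median log2 fold change of the members was -0.17, with 18 of 30 below 0, and the median of all genes tested was 0.00. For 0 of the 30 members did the groups not overlap, whereas 3.91% of all genes had every KO library above every WT library and 4.51% every KO library below, 8.43% in all. By same-numbered pair the members' median was 0.05, -0.19 and -0.51 for replicates 1, 2 and 3.

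The largest differences were those of Myh11, at -2.63 (SE 1.16), Lmod1, at -2.46 (SE 1.37), Csrp2, at 1.71 (SE 0.51), Cnn1, at -1.36 (SE 1.80), and Nexn, at -1.04 (SE 0.37). In limma each had an adjusted p of 0.999, and the unadjusted p was 0.0565, 0.119, 0.0121, 0.479 and 0.0269 in the same order. Acta2 was at 0.14 (SE 1.02) and Tagln at 0.56 (SE 1.23), values whose SE exceeds the difference. Their direction turns with the scale, since the KO mean of scaled reads was 0.645 of the WT mean for Acta2 and 0.857 for Tagln. The log2 ratios in the authors' deposited table are -0.63 for Acta2 and -0.22 for Tagln. Fhl1, Flna and Tpm1, at 0.20, 0.047 and 0.011 in limma, likewise had a ratio of means below 1 and stand at -0.20, -0.0048 and -0.054 in the authors' deposited table. Exact two-sided permutation tests gave p = 0.2 for Csrp2, Nexn, Myh11 and Lmod1, and 3 libraries a group cannot give less than 0.1. The authors' deposited table has an FDR under 0.05 for 0 of the 30 members and for 0.525% of its 12389 genes. At an unadjusted p under 0.05 the authors' deposited table holds 4 members, Myh11, Csrp2, Nexn and Lmod1, and 5.3% of its genes. The lowest member FDR in the authors' deposited table was 0.0826, for Myh11, at a log2 ratio of -3.57.

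KO was below WT in all 3 same-numbered pairs for 9 of 30 members, against 15.0% of all genes, and above in all 3 for 1 of 30, Csrp2, against 15.7%. The 9 were Myh11, Lmod1, Nexn, Synm, Ldb3, Synpo2, Cald1, Pdlim5 and Smtn. Myh11 differed by -1.07, -2.75 and -4.07 in pairs 1 to 3, and Lmod1 by -0.14, -4.99 and -2.25. With the replicate number as a block, limma again passed 0 members at an adjusted p of 0.05, as for 0.0% of all genes, and 3 of 30 had an unadjusted p below that value against 7.42% of all genes. These were Csrp2, with a blocked p of 0.000582 and adjusted p of 0.259, Myh11, at 0.00803 and 0.491, and Nexn, at 0.0180 and 0.577. By deviations from the genotype mean across the members, WT replicate 1 had r = 0.59 with KO replicate 1 and 0.60 with KO replicate 2. WT replicate 2 had 0.37 with KO replicate 1 and 0.32 with KO replicate 2, so pairs 1 and 2 rest on the numbering alone.

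**Figure D3:**
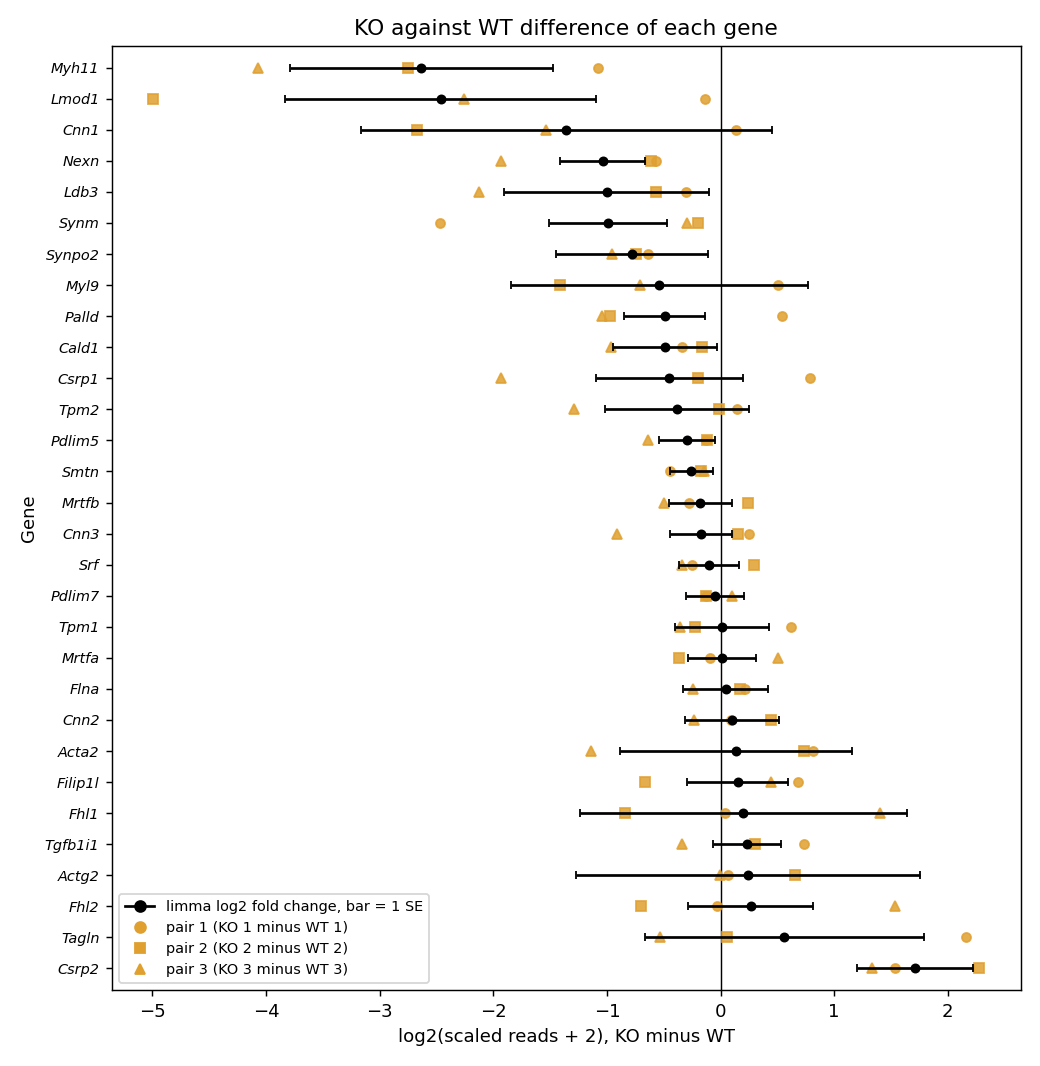
KO minus WT difference in log2(scaled reads + 2) for the 30 genes, as the limma estimate with a bar of 1 SE (black) and as the 3 same-numbered pairs (orange). Myh11 and Lmod1 lie farthest to the left at -2.63 and -2.46, Csrp2 farthest to the right at 1.71, and the pairs of Acta2 and Csrp1 lie on both sides of 0.

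Over all 6 libraries, replicate number accounted for more of the spread in these genes than genotype did. Of each gene's sum of squares over the 6 libraries, the median share of the replicate number was 68.6% for the members and 54.9% for all genes, and that of genotype 7.69% and 10.3%. The number has 2 degrees of freedom and genotype has 1, which by itself gives the number a larger share. The order of the shares rested on replicate 3. Without both libraries of replicate number 3, the members' median share was 19.9% for number and 35.4% for genotype, against 32.9% and 29.6% for all genes. Without replicate number 1 or 2, number kept the larger median share in the members, at 70.2% and 55.0%. Actg2 (99.0%), Pdlim7 (94.8%), Fhl1 (93.3%), Flna (92.8%), Myl9 (91.8%) and Cnn2 (91.2%) had the largest shares for number. Genotype took the larger share in Csrp2 (64.9%), Nexn (57.7%), Smtn (51.4%), Myh11 (46.1%), Synm (43.6%), Palld (25.0%) and Cnn3 (8.85%).

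**Figure D4:**
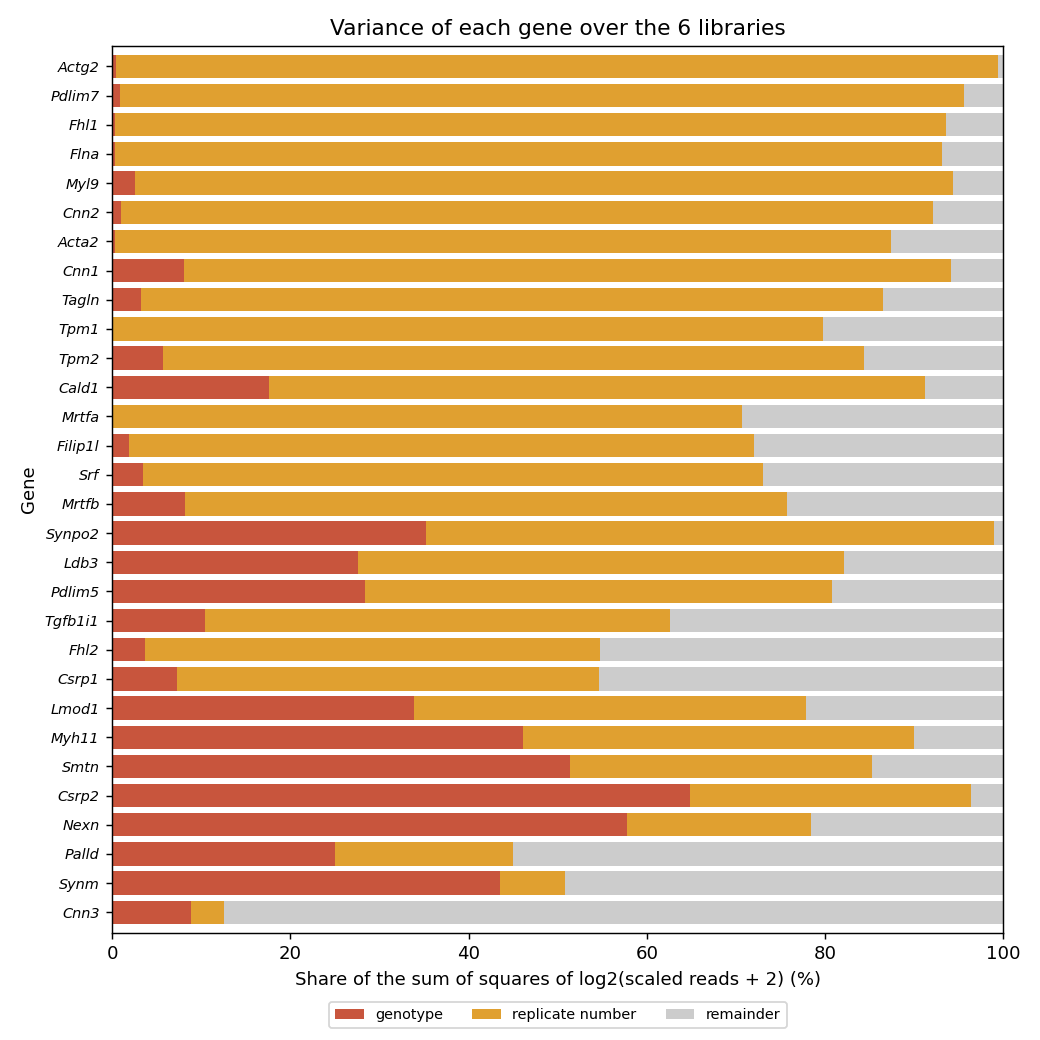
Share (%) of the sum of squares of log2(scaled reads + 2) over the 6 libraries that falls to genotype (red), replicate number (orange) and the remainder (grey) for each of the 30 genes. Number takes most of the bar for Actg2, Fhl1, Myl9, Acta2 and Cnn1, and genotype takes most of it for Csrp2, Nexn and Smtn.

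In the limma F test of the replicate number, 0 of the 30 members passed the adjusted threshold, against 1.1% of all genes, and 13 of 30 had an unadjusted p below it against 19.1% of all genes. The smallest limma adjusted p were 0.0634 for Myl9, 0.0749 for Fhl1, 0.0865 for Cnn1 and 0.0871 for Actg2. Without both libraries of replicate number 2, 4 members passed, namely Cnn1, Fhl1, Actg2 and Myl9, where 3.99% of all genes did. These genes were proposed with the order by replicate number known, so the counts describe that order and do not support it independently. No label says what a replicate number marks.

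Replicate 3 was the highest library of its genotype in both WT and KO for 17 members (56.7%), against 22.5% of all genes, and the lowest in both for Fhl1 alone (3.33%), against 22.0%. As the difference of replicate 3 from the mean of replicates 1 and 2, Cnn1 stood at 4.63 in WT and 4.36 in KO on the log2 scale, Actg2 at 4.09 and 3.73, and Myl9 at 3.52 and 3.27. Tagln stood at 3.78 and 2.15, Acta2 at 3.47 and 1.55, Myh11 at 3.80 and 1.65, and Lmod1 at 2.44 and 2.75. Fhl1 stood at -4.53 and -2.73. The difference was above 1 in both genotypes for 7 members (23.3%) and for 2.94% of all genes. It was larger in WT than in KO for 22 members (73.3%) against 50.2% of all genes, a contrast that was not tested for single genes. Across the 30 members the WT and KO differences had a Pearson r of 0.83 and a Spearman rho of 0.69, against 0.39 and 0.41 across all genes, which share libraries and are not independent.

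**Figure D5:**
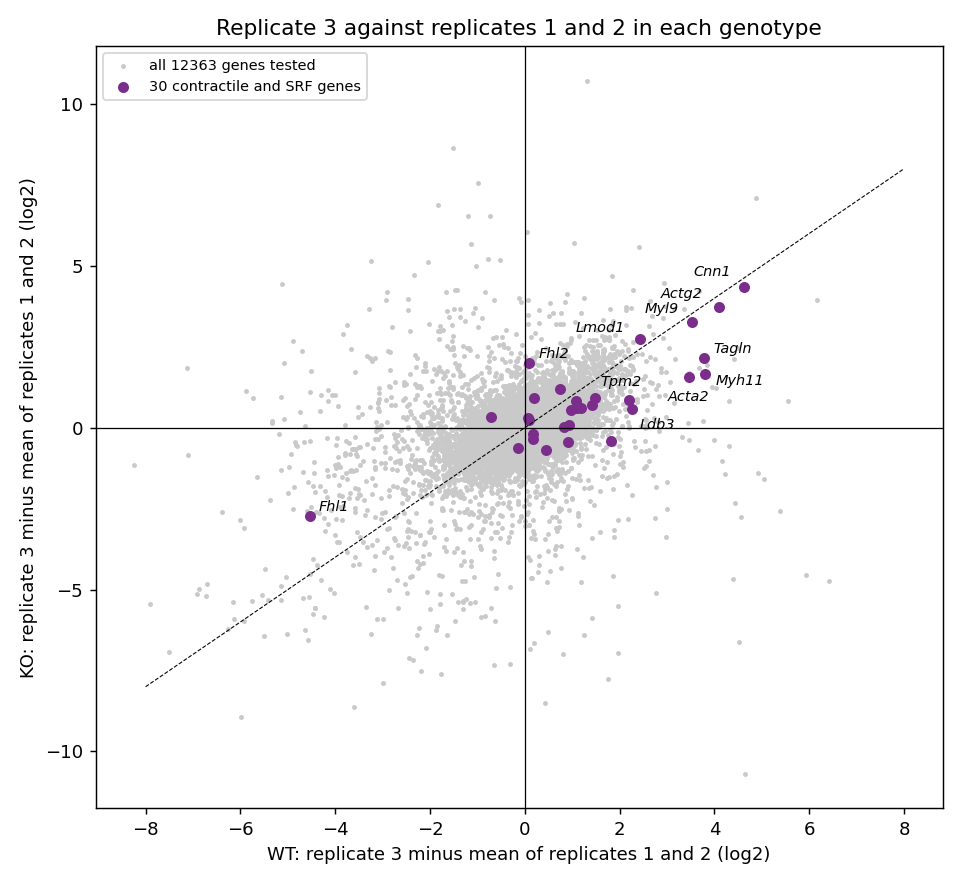
Replicate 3 minus the mean of replicates 1 and 2, in log2(scaled reads + 2), in WT (x axis) and KO (y axis), for the 30 contractile and SRF genes (purple) and all 12363 genes tested (grey), with the dashed line marking equal values. Cnn1, Actg2, Myl9, Tagln, Acta2, Myh11 and Lmod1 lie at the upper right and Fhl1 at the lower left.

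Other gene groups differed between the same libraries. All 15 proliferation genes listed, cell cycle and replication genes such as Rrm2, Prc1, Ccna2, Tyms and Top2a, were highest in replicate 3 in both genotypes, against 22.5% of all genes. The proliferation genes had a sum of 7464, 14797 and 32997 scaled reads in WT and 7963, 28914 and 58228 in KO. Transcripts of the mitochondrial genome were 1.82% and 2.37% of scaled reads in replicate 3 of WT and KO and 4.24% to 7.13% in the other libraries. Estimated depth, too, was highest in replicate 3, at 45.3 M reads in WT and 47.9 M in KO. Of 9 mesothelial markers 6 were analysed, and 4 were lowest in replicate 3 in both genotypes, against 22.0% of all genes. Their sum was 6263 in WT replicate 3 and 1127 in KO replicate 3 and 7390 to 19995 in the other libraries. Krt18, named after its values were seen, was at 269, 146 and 61.7 in WT and 2.14, 188 and 0 in KO, so KO replicate 1 was very low too. The highest mesothelial markers were Upk1b, at 8406, 4408 and 638 in WT and 3400, 1233 and 22.8 in KO, and Upk3b, at 5523, 2250 and 5235 in WT and 2913, 2219 and 374 in KO. Of 10 fibroblast markers 9 were analysed, and 4 were lowest and 1 was highest in replicate 3 in both genotypes, against 22.0% and 22.5% of all genes. Their sum was 42689 and 46250 in replicate 3 and 39670 to 61386 in the others. The median over the 9 of the difference of replicate 3 from replicates 1 and 2 was -1.30 in WT and -4.23 in KO on the log2 scale. The fibroblast proteoglycan Dcn had 24710, 26351 and 1362 in KO and 11976, 8734 and 12661 in WT. The other of the highest fibroblast markers, Serpinf1, ran the other way, at 2892, 17673 and 22334 in WT and 3877, 9939 and 23813 in KO, highest in replicate 3 of each genotype. The leukocyte genes Csf1r and Lyz2 ran from 212 to 899 and from 97.3 to 693 over the 6 libraries, and the pericyte genes Pdgfrb and Notch3 from 17661 to 30959 and from 373 to 1850. Of the other lists, Tnnt2 of striated muscle ran from 17.5 to 327, Fabp4 of adipocytes from 17.8 to 1427, and Mbp and S100b of Schwann cells from 581 to 1490 and from 9.25 to 529. The part of these differences in the levels of the contractile genes was not tested.

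Without the replicate 3 libraries, a check added after the data were seen, limma with 2 libraries against 2 again passed 0 members, and the members' median was -0.13 with 17 of 30 below 0. Csrp2 was then at 1.90, Myh11 at -1.91, Lmod1 at -2.56 and Cnn1 at -1.27. Acta2 was at 0.78 and Tagln at 1.11. Without WT replicate 3 alone, the members' median was 0.03 and Acta2 was at 1.29, Tagln at 1.82, Cnn1 at 0.19 and Myh11 at -1.37, so the signs of the median and of Cnn1 turned with that library.

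The other genes of the pathway were read from lists. Of 30 cytoskeletal targets of MRTF and SRF outside the members, 0 passed in limma in either direction, also at the unadjusted p, with a median log2 fold change of 0.00 and 15 of 30 below 0. The smallest p were those of Vasp (0.45, SE 0.22), a filament elongation factor, Vcl (-0.66, SE 0.47), vinculin, Tln1 (-0.32, SE 0.28), talin, and Ankrd1 (-1.30, SE 1.32), and the highest gene, Ahnak, was at -0.18 (SE 0.47). Replicate 3 was highest in both genotypes for 8 of these 30, which is near the 22.5% of all genes. Their median share of the sum of squares was 68.8% for replicate number and 5.78% for genotype, against 68.6% and 7.69% for the members. A share for number of this size was thus not particular to the members. The non-muscle actin Actb ran from 14276 to 30251 scaled reads per kb over the 6 libraries, and Acta2 from 4850 to 59647.

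Of 8 immediate-early genes analysed from a list of 10, the targets SRF reaches through ternary complex factors, 6 were below 0 in KO with a median of -0.26. The 2 above 0 were Fos (0.32, SE 0.53) and Egr3 (1.11, SE 1.53). By same-numbered pair the median of the list was -0.49, -0.78 and 0.04 for replicates 1, 2 and 3. Junb was at 2431, 1984 and 2547 scaled reads in WT, against 1585, 1535 and 1550 in KO, and Nr4a1 was at 677, 1462 and 681 in WT, against 454, 488 and 256 in KO. In both genes every KO library lay below every WT library, as for 4.51% of all genes, and the limma unadjusted p was 0.0169 and 0.0204 with an adjusted p of 0.999, so neither passed. These were 2 of 8 with an unadjusted p under 0.05, against 3.62% of all genes. Fosl1 was at -1.01 (SE 0.67), Ier2 at -0.35 (SE 0.34) and Mcl1, the highest of the list, at -0.044 (SE 0.26). None of the 8 was highest in replicate 3 in both genotypes, against 22.5% of all genes, and 4 were lowest in it in both, against 22.0%.

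Of 30 further contractile smooth muscle genes analysed from a list of 36, 0 passed, 1 of 30 passed at the unadjusted p in limma, which is near the 3.62% of all genes, and the median was -0.13. That gene was Itga7, the laminin-binding integrin subunit of muscle, with 1890, 566 and 744 scaled reads in WT and 229, 439 and 120 in KO. Its KO libraries all lay below its WT libraries, as for 4.51% of all genes. Mustn1 (-1.12, SE 0.49), Parva (0.49, SE 0.22) and Npnt (2.34, SE 1.03), the gene of the integrin ligand nephronectin, had the next smallest p, and Myl6, the highest of the list, was at 0.14 (SE 0.29). For the actin-binding focal adhesion protein parvin alpha, Parva, every KO library lay above every WT library, as for 3.91% of all genes, at 8417, 8494 and 7743 in WT and 11681, 9497 and 13767 in KO. The low gene Ppp1r14a, named after its values were seen, was below WT in every KO library. It was at 21.3, 28.0 and 519 in WT and 10.7, 4.62 and 14.2 in KO. Replicate 3 was highest in both genotypes for 8 of the 30, near the 22.5% of all genes, and lowest in both for 2, against 22.0%. The median share of replicate number was 43.6%, against 54.9% for all genes.

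Among 24 of 28 listed cofactors and antagonists of SRF, 0 passed and the median was 0.00. Replicate 3 was lowest in both genotypes for 10 of the 24 and highest in both for 4, against 22.0% and 22.5% of all genes. Phactr1, which binds actin monomers through the same kind of motif as the MRTF proteins, was at 683, 508 and 413 scaled reads in WT, against 179, 253 and 54.8 in KO. The limma log2 fold change was -1.93 (SE 0.57) with an adjusted p of 0.999 and an unadjusted p of 0.0113, the 1 of 24 below 0.05 against 3.62% of all genes. Yap1, Zeb1 and Tead3 were at -0.39 (SE 0.20), -0.45 (SE 0.25) and 0.33 (SE 0.24), and Mical2, the highest of the list, was at 0.053 (SE 0.21). For Phactr1 and Yap1 every KO library lay below every WT library, as for 4.51% of all genes. Of 18 analysed markers of modulated smooth muscle from a list of 19, 13 were below 0 with a median of -0.11, and Ereg, the gene of epiregulin, had the smallest p at -1.30 (SE 0.44). Sox9 was at 0.61 (SE 0.38), Ly6a at 0.69 (SE 0.54) and Fn1, fibronectin, the highest of that list, at 0.39 (SE 0.43). In limma 0 of the 18 passed, and Ereg alone did so at the unadjusted p, of 0.0200, where 3.62% of all genes did. Of these 18, replicate 3 was lowest in both genotypes for 7 and highest in both for 1, against 22.0% and 22.5% of all genes.

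Of the 30 members, 4 overlap another gene of the table on the opposite strand, namely Filip1l (with Cmss1), Mrtfa (with Sgsm3), Synm (with Ttc23) and Tagln (with Pcsk7 and Gm48529). The libraries were stranded, but no source used here says whether counting used strand, so reads of these 4 are uncertain to that extent.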

How the data were processed

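Tables of 12389 and 12388 genes in 6 libraries were deposited, and the first was used. Per the submitters' processing notes, the authors used STAR, Partek and DESeq2. The same notes name the builds GRCm39 and mm39, without roles or settings. The deposited per-library values are a scaled signal, estimated reads divided by a library factor, although the table's name says raw counts: 83.0% to 92.8% of values up to 50 reads lie within 0.05 of whole multiples of 1 read, too few to recover counts. The authors' deposited comparison table gives p-values with FDR, log2 ratios and mean signal per group. Its gene starts match GENCODE M21 (GRCm38) for 12341 of 12385 genes.

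Values were taken as log2(value + 2) and fitted with limma 3.58.1 (R 4.3.3) on genotype alone, with a mean trend and robust priors, two-sided, with Benjamini-Hochberg adjustment over the 12363 genes tested. The script was tested on simulated data. Same-numbered libraries deviated together across genes (r = 0.43, 0.15 and 0.39), so the number was also fitted as a block and by an F test. Across the 30 members the same r were 0.59, 0.32 and 0.83, and replicates 1 and 2 were not set apart by number. The planned comparison of proteins was not made. The members, lists and rules were chosen with earlier results of these data known. Named genes are all members, in each pathway list the 4 with the smallest p and the highest gene, and in marker lists the highest 2, and any other gene named beside these was chosen after its values were seen. P-values measure the spread between these cultures.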

Additional observations from a re-analysis of the deposited data

How the results depend on the processing

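No member passed in either direction under any of the 19 other settings (scalings, pseudocounts, filters, the other deposited table, priors, library weights, the replicate block and libraries left out), and the lowest adjusted p of any member was 0.0752, for Csrp2 with library weights, whose fit gave a convergence warning and where 6 genes higher and 24 lower of all tested passed. The replicate block left the count at 0 and the median at -0.17. Without each library in turn the members' median ran from -0.36 to 0.032, and the counts higher and lower stayed at 0. In the test of the replicate number, 4 members passed without replicate number 2 and 0 under each other setting. The promoter count went from 7 to 15 members with a single mismatch allowed. Library weights turned the sign of Fhl2 (-0.31), Mrtfb (0.19), Srf (0.30), Pdlim7 (0.059), Fhl1 (-0.50), Csrp1 (0.19), Tpm2 (0.0066), Mrtfa (-0.15), Filip1l (-0.34) and Cnn3 (0.090), and leaving out both replicate 3 libraries turned Fhl2 (-0.37), Srf (0.020), Fhl1 (-0.40), Csrp1 (0.29), Tpm2 (0.065), Mrtfa (-0.23) and Cnn3 (0.20), where the cause was not tested.

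With 1 library left out, the sign turned for 18 of 30 members, with these ranges: Acta2 (-0.52 to 1.29), Actg2 (-1.002 to 1.60), Cnn1 (-2.86 to 0.19), Cnn2 (-0.28 to 0.47), Cnn3 (-0.30 to 0.056), Csrp1 (-0.93 to 0.15), Fhl1 (-1.31 to 1.11), Fhl2 (-0.40 to 0.72), Filip1l (-0.24 to 0.47), Flna (-0.19 to 0.37), Mrtfa (-0.29 to 0.26), Mrtfb (-0.33 to 0.031), Myl9 (-1.63 to 0.64), Pdlim7 (-0.21 to 0.15), Srf (-0.34 to 0.076), Tagln (-0.53 to 1.82), Tpm1 (-0.24 to 0.40) and Tpm2 (-0.78 to 0.35). For the other 12 the sign held. Counting error weighs most on low values. The lowest single values were those of Lmod1, Actg2 and Myh11, at 17.3, 19.8 and 20.8 scaled reads. The lowest means over the 6 libraries were those of Ldb3 and Synpo2, at 84.6 and 96.3.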
